A study of Mus musculus with 201 samples.

Results

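Molecular chaperones fold new proteins, hold unfolded ones in solution and return damaged ones to shape. The HSP70 proteins do this in cycles of ATP hydrolysis that J-domain proteins such as DNAJB1 start and HSP110 proteins such as HSPH1 reset, and HSP90 proteins finish the folding of kinases, receptors and other clients. Heat shock factor 1 (HSF1) switches on the inducible cytosolic members by binding heat shock elements, arrays of GAA and its complement, whereas Hspa5 is controlled mainly by the unfolded protein response of the endoplasmic reticulum (ER). Several of these genes are also known to be induced when brain tissue is warmed and digested with enzymes, and some by neuronal activity.

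The 10 heat shock and chaperone genes described here were Hspa1a, Hspa1b, Hspa5, Hspa8, Hsph1, Hsp90aa1, Hsp90ab1, Dnajb1, Hspb1 and Hspe1. They were taken from a list of names and not filtered by their measured values, but the list was chosen with earlier results of these data known. All 10 were among the 42609 gene symbols that the tables for whole cells, nuclei of a mouse in an unfamiliar arena and nuclei of a home cage mouse had in common. Each sample was a single dentate granule cell, or the nucleus of one, amplified and sequenced on its own.

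Saline whole cells and PTZ whole cells came from Prox1-GFP mice, in which GFP marks cells that use the granule cell gene Prox1, and were sorted as GFP+. The mice were killed 1 h after an injection of saline or of pentylenetetrazole (PTZ, 50 mg per kg), which blocks GABA-A receptors and causes seizures, and the tissue was digested in papain at 37 °C for 1 to 1.5 h. FOS+ and FOS- nuclei came from a C57BL/6 mouse that had explored an arena it did not know (NE) for 15 min. Per the paper, it was then back in its home cage for 1 h before it was killed. These nuclei were freed with a Dounce homogenizer in the cold, and were sorted as Prox1+/Fos+ or Prox1+/Fos- by antibody. They were amplified with Smart-seq2 in 4 conditions that crossed the concentration of the template-switching oligonucleotide (TSO, 1 or 10 uM) with the dilution of the ERCC spike-in RNA (1:200 or 1:2000). HC nuclei came from a C57BL/6 mouse left in its home cage (HC), were freed in the same way, and were captured, scored by imaging for NeuN and Prox1 staining and amplified on the Fluidigm C1. All HC nuclei are labelled NeuN+/Prox1+. Wild-type mice were 8-week-old females. The labels tie no cell to an animal, the tissue of the mice of a treatment was pooled for the whole cells, and in each group all cells may share 1 animal or 1 pool, so each group counted as 1 sample and no comparison had a replicate check or a test. Read length was paired-end 100 bases for whole cells and HC nuclei and single-end 50 bases for NE nuclei. Between whole cells and NE nuclei, both amplified with Smart-seq2, the treatment of the mice, strain, dissociation and read length cannot be told apart from the compartment. Between HC and NE nuclei, of the same strain and dissociation, the experience of the mouse, the selection of nuclei, amplification and read length cannot be told apart.

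Of 201 cells, 38 saline whole cells, 30 PTZ whole cells, 41 FOS- nuclei, 40 FOS+ nuclei and 23 HC nuclei were kept. Median total counts were 975934, 1090750, 214421, 269061 and 165926 in that order, and the mean number of genes above 1 TPM (a transcript level scaled by transcript length and to the same total in every cell) was 6272, 6192, 6281, 6185 and 3237. Prox1 was detected in every whole cell kept, and all 5 granule cell markers were found in at least 1 cell of each group. In nuclei Prox1 was in 34 of 41 FOS-, 33 of 40 FOS+ and 14 of 23 HC nuclei. Of the 23 HC nuclei, Calb1 was in 16, Rbfox3 in 11, C1ql2 in 7 and Dsp in 3. Of the other cell types, Cldn5 and Ly6c1 of endothelium and C1qa of microglia were at 0 in every kept cell. Other markers of these types were detected widely. Cx3cr1 of microglia was in 33 of 41 FOS- and 29 of 40 FOS+ nuclei, and Pecam1 of endothelium in 18 of 38 saline whole cells and 19 of 23 HC nuclei. Slc1a3 of astrocytes was in 25 FOS- and 31 FOS+ nuclei, and Mbp of oligodendrocytes in 25 saline whole cells. Summed astrocyte markers reached 3830 TPM in 1 PTZ whole cell and 2762 TPM in the highest HC nucleus. Summed microglia markers reached 4304 TPM in 1 FOS+ nucleus. Of the interneuron markers, Gad1 was in 33 of 38 saline whole cells and Gad2 in 10 of 23 HC nuclei. Summed interneuron markers reached 3231 TPM in the highest HC nucleus.

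Promoters are shown for the genes on which the results turn, because the inducible members are classed by the elements they carry. RefSeq windows of 250 bases before to 50 bases after a start (GRCm38.p6) were at hand for 7 of the 10 genes, the others being Hspa8, Hsp90aa1 and Hsp90ab1. Capitals in the stretches below mark matches to GAANNTTC or TTCNNGAA, the 2-unit heat shock elements, in the first 3 lines, to the ER stress response element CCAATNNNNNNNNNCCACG in the line for Hspa5, and to the 3-unit element GAANNTTCNNGAA or its reverse complement TTCNNGAANNTTC in the line for Hsph1. The first 3 lines end just before the more upstream of the RefSeq and GENCODE M21 starts.
Hspa1a, chr17:34972157-34972276, minus strand: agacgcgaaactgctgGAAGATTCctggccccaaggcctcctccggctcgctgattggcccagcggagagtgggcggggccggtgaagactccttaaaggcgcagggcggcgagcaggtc
Hspe1, chr1:55088012-55088131, plus strand: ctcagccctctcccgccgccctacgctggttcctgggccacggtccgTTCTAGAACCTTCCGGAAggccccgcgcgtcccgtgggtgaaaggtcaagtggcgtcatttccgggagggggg
Dnajb1, chr8:83608055-83608174, plus strand: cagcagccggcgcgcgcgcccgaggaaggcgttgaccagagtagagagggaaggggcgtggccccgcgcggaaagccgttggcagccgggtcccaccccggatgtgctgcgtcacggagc
Hspa5, chr2:34772020-34772049, plus strand: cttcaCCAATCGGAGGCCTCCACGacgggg
Hsph1, chr5:149636287-149636316, minus strand: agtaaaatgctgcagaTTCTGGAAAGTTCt

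Over all 32851 windows, searched on both strands, GAANNTTC was in 7.86%, TTCNNGAA in 8.52%, the 3-unit element, which contains both, in 0.603% and the ER stress response element in 0.119%. Hspe1 held 2 overlapping 3-unit matches, the first starting 89 bases before its start, and Hsph1 held 1, which lay 37 bases into its transcript. Hspa1a and Hspa1b each had GAAGATTC starting 104 bases before the start, and their windows were identical at 296 of 300 bases. Hspb1 had 2 matches to GAANNTTC. The element in Hspa5 began 65 bases before its RefSeq start, a place that the longest GENCODE transcript already covers. Neither Dnajb1 window held any of these letters, which says only that they are not in these windows.

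The constitutive HSP90 and HSP70 genes were, with the inducible HSP90, the most abundant members in whole cells and in FOS- and FOS+ nuclei, and were lower in nuclei than in whole cells. Hsp90ab1, the constitutive cytosolic HSP90, ranged from 354 to 2998 TPM with a median of 1702 in saline whole cells. In PTZ whole cells it ranged from 183 to 3377 with a median of 1750. Both groups of whole cells had it in every cell, over nearly the same range. In FOS- nuclei the lowest, median and highest values were 0, 335 and 2522 TPM. In FOS+ nuclei they were 0, 433 and 2145 TPM. In HC nuclei they were 0, 16 and 1495 TPM. The ranges of nuclei and whole cells overlapped, with the nuclei reaching 0 and the whole cells not.

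Hsp90aa1, the inducible HSP90 isoform, was also present in every whole cell kept, at 363 to 3300 TPM with a median of 1201 after saline. After PTZ it spanned 59.0 to 5178 TPM with a median of 1087. It was detected, at TPM above 1, in 32 of 41 FOS- nuclei (median 207, highest 1607 TPM) and in 38 of 40 FOS+ nuclei (median 526, highest 5069 TPM). Only 6 of 23 HC nuclei had it, the highest at 1927 TPM. FOS+ nuclei thus lay between whole cells and FOS- nuclei in their median, with wide overlap of both.

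Hspa8, the constitutive HSC70 that also uncoats clathrin vesicles, had medians of 1197 TPM in saline whole cells (range 0 to 2319) and 1402 TPM in PTZ whole cells (range 69.1 to 3211). The median was 80.9 TPM in FOS- nuclei (range 0 to 1464) and 320 TPM in FOS+ nuclei (range 0 to 2083). It was detected in 8 of 23 HC nuclei, where a single nucleus at 4677 TPM exceeded every other cell of the series that was kept. All the other HC nuclei were at 559 TPM or below.

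Hspa5 encodes BiP, the HSP70 of the ER. Its medians were 211 TPM (range 0 to 711) and 215 TPM (range 0 to 892) in saline and PTZ whole cells. FOS- nuclei had a median of 12.6 TPM and a highest value of 589, against 184 and 3437 TPM in FOS+ nuclei. The highest FOS+ nuclei therefore exceeded every whole cell. It was detected in 6 of 23 HC nuclei.

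Hsph1, an HSP110 that acts as nucleotide exchange factor for HSP70, had medians of 131 TPM in both groups of whole cells, was detected in 19 of 41 FOS- and 26 of 40 FOS+ nuclei, and reached 732 and 584 TPM in them. Hspe1, the mitochondrial HSP10 that caps the HSP60 folding chamber, had medians of 174 and 134 TPM in saline and PTZ whole cells and was seen in 18 of 41 FOS-, 18 of 40 FOS+ and 10 of 23 HC nuclei. With at least 5 counts asked for, the shares of Hspe1 were 29.3% of FOS-, 42.5% of FOS+ and 26.1% of HC nuclei. FOS- and HC nuclei thus stayed alike and FOS+ nuclei were higher, but a limit in counts depends on total counts, which differed between the groups.

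Dnajb1, the stress-inducible HSP40, was detected in 22 of 38 saline whole cells (57.9%, exact 95% interval 40.8 to 73.7%) and 15 of 30 PTZ whole cells (50%, 31.3 to 68.7%). It was found in 6 of 41 FOS- nuclei (14.6%, 5.57 to 29.2%), 16 of 40 FOS+ nuclei (40%, 24.9 to 56.7%) and 1 of 23 HC nuclei (4.35%, 0.110 to 21.9%). These intervals cover counting error only. Many of these values were low: above 5 TPM, Dnajb1 was found in 9 of 40 FOS+ (22.5%), 3 of 41 FOS- (7.32%) and 0 of 23 HC nuclei. The highest values were 585 and 752 TPM in saline and PTZ whole cells and 742 TPM in FOS+ nuclei, against 77.5 TPM in FOS- nuclei and 3.46 TPM in HC nuclei.

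**Figure D1:**
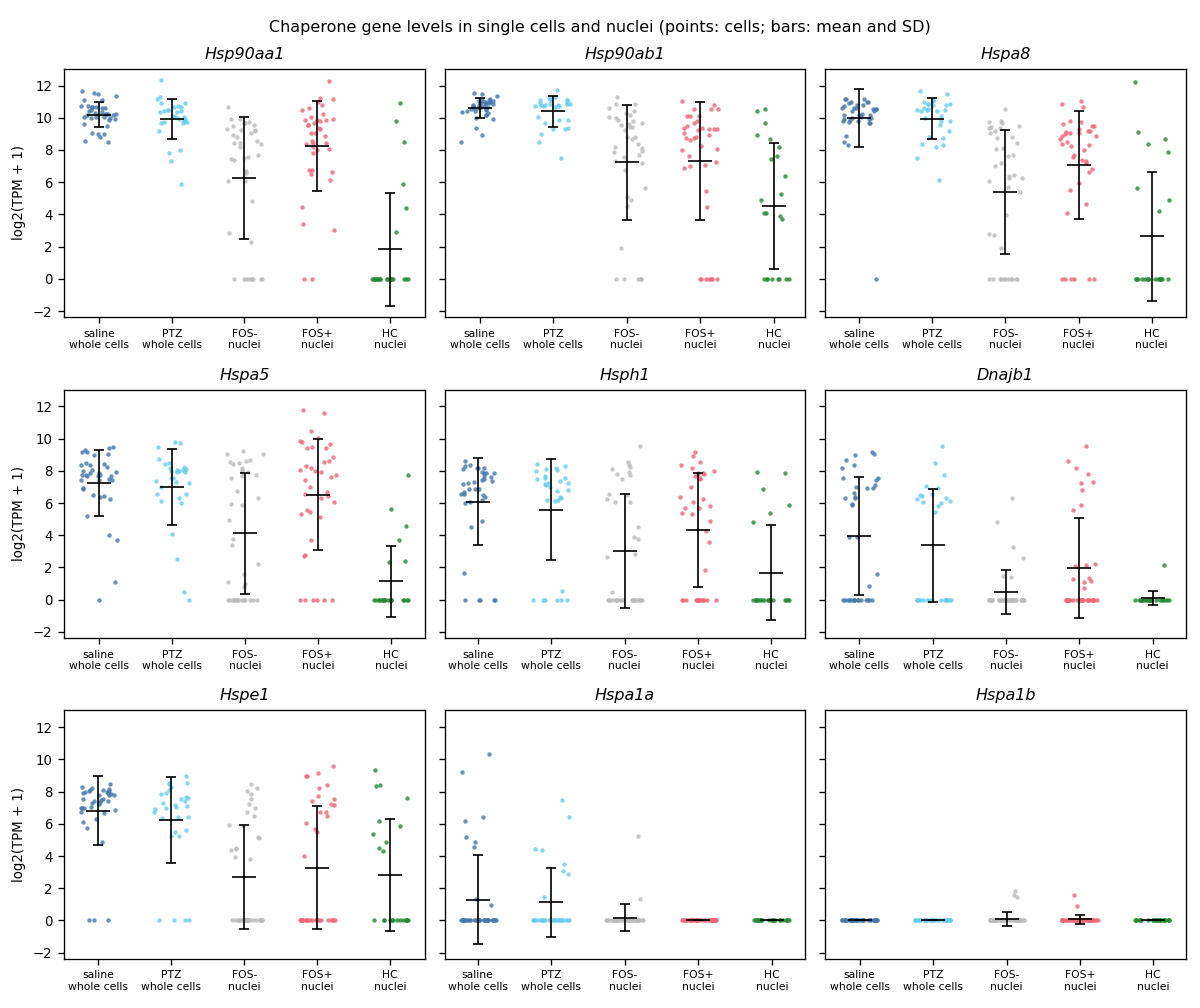
Level of each gene as log2(TPM + 1) in every kept cell (points) of the 5 groups on the x axis, with the mean and SD over cells in black. Hspb1, at 0 throughout, is left out; Hsp90aa1 and Hsp90ab1 are above 0 in every whole cell, and the nuclei spread from 0 to the whole-cell range.

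Hspa1a and Hspa1b, the paired stress-inducible HSP70 genes, were the sparsest that were detected at all. Hspa1a was above 1 TPM in 8 of 38 saline whole cells (21.1%, exact 95% interval 9.55 to 37.3%) and 8 of 30 PTZ whole cells (26.7%, 12.3 to 45.9%). Of the nuclei, it was above 1 TPM in 2 of 41 FOS-, 0 of 40 FOS+ and 0 of 23 HC nuclei, and 0 counts in all FOS+ nuclei put its upper limit, as summed counts over the group's summed total, at 0.257 CPM (counts scaled to the same library total, with no correction for length). The pooled level was 101.7 CPM in saline whole cells (Poisson 95% interval 98.6 to 105) and 16.8 in PTZ whole cells (15.5 to 18.1), but 1 saline cell at 1282 TPM held 60.8% of its group's TPM. The next saline cell was at 583 TPM, and the highest PTZ cell at 176 TPM. These 2 saline cells, singled out after their values were seen, also had Dnajb1 at 288 and 329 TPM and Fos at 7452 and 4127 TPM, and the highest PTZ cell had Dnajb1 and Fos at 0 and the lowest total count of its group, 67212. The next PTZ cell, with Hspa1a at 83.7 TPM, had Dnajb1 at 0 but Fos at 8433 TPM, above both saline cells. Hspa1b had no count in any whole cell kept, and was above 1 TPM in 3 FOS- nuclei and 1 FOS+ nucleus, with a highest value of 2.60 TPM.

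Hspb1, the small heat shock protein HSP25, had 0 counts in all 201 cells of the tables, 114990160 counts in all, which allows a level of up to 0.0261 CPM (3 counts over the total). Its pseudogene Hsp25-ps1, which holds 52.3% of the stretches of 31 bases in Hspb1 transcripts, was also at 0. Gm9817, which holds 41.9% of them, was detected in 0 of 38 saline and 0 of 30 PTZ whole cells, 5 FOS-, 6 FOS+ and 11 of 23 HC nuclei, at no more than 19.5 TPM.

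**Figure D2:**
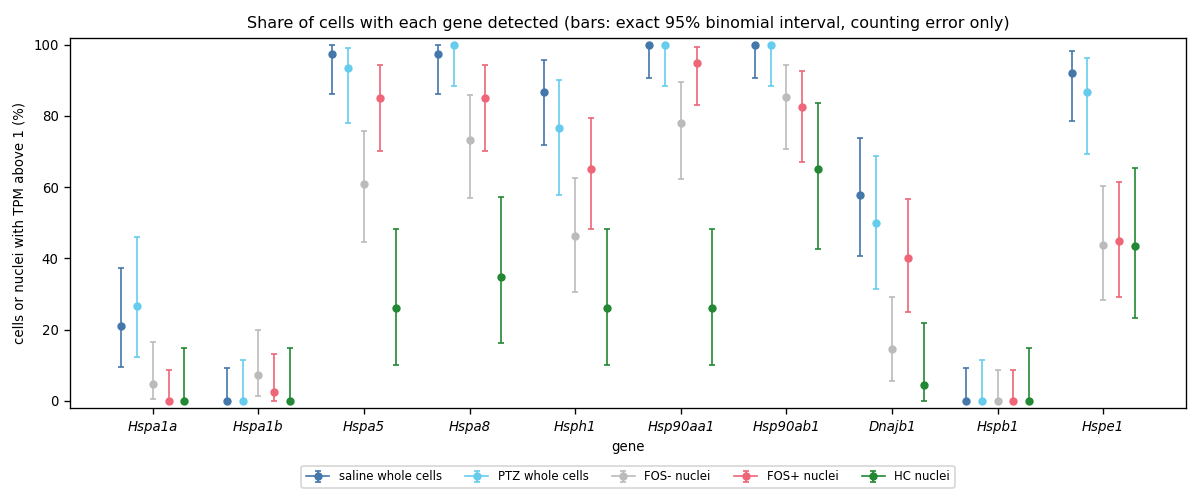
Percent of kept cells with TPM above 1 (y axis) for the 10 genes (x axis) in the 5 groups, with exact 95% binomial intervals that cover counting error only. Dnajb1 was at 14.6% in FOS- and 40% in FOS+ nuclei, and Hspb1 was at 0 in every group.

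The order of the members was much the same in each group. Hsp90ab1, Hsp90aa1 and Hspa8 led in whole cells and in FOS- and FOS+ nuclei, followed by Hspa5, whereas in HC nuclei Hspe1 came second after Hsp90ab1. In whole cells the step from the leading 3 genes down to Hspa5 was the only one between neighbours that exceeded the SD of the difference within cells, at 2.72 ± 2.57 (log2 scale, SD, n = 38) after saline and 2.94 ± 2.73 (n = 30) after PTZ. In nuclei no step between neighbours exceeded its SD. Saline whole cells had a median of 7 members per cell, PTZ whole cells 6.5, FOS+ nuclei 5, FOS- nuclei 4 and HC nuclei 2.

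The sort by FOS protein asks how nuclei of recently active granule cells differ from their neighbours in the same mouse, and 5 members were higher in FOS+ nuclei by more than 1 on the log2 scale, a 2-fold difference. Values are differences of mean log2(TPM + 1), FOS+ minus FOS-, for genes with TPM above 1 in at least 20% of the nuclei compared. Hspa5 was higher by 2.39 (mean 6.51 ± 3.45 against 4.12 ± 3.77, SD over 40 and 41 nuclei). Hsp90aa1 was higher by 2.00 (8.27 ± 2.79 against 6.28 ± 3.78). Hspa8 differed by 1.68, Dnajb1 by 1.49 and Hsph1 by 1.32. Dnajb1, detected in 40% of FOS+ and 14.6% of FOS- nuclei, passed the 20% limit through the FOS+ nuclei, which favours a higher value there. Hspe1 differed by 0.59 and Hsp90ab1 by 0.07. None of the 7 members compared was lower by more than 1. Over all 10249 genes compared, 8.28% were higher in FOS+ nuclei by more than 1 and 10.8% lower, and the median difference was -0.11, while the median of the 7 members was 1.49. Each member's difference was smaller than the pooled SD of its nuclei, and the groups overlapped for every member.

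Among all genes Hspa5 stood at the 98.8th percentile of the differences and Hsp90aa1 at the 97.8th. All 5 immediate early genes that passed the filter were higher by more than 1, led by Arc (6.63), the synaptic cytoskeletal regulator, Junb (2.89) and Fosb (2.81), and FOS itself had defined the sort. Arc was detected in 31 of 40 FOS+ and 1 of 41 FOS- nuclei, Junb in 18 and 5, and Fosb in 19 and 2. They passed the filter through the FOS+ nuclei, which favours a higher value there. FOS+ nuclei also had more total counts, overall and within each of the 4 conditions, and the part of this in the members' values was not tested.

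The members split by amplification condition. Hsp90aa1 was higher in FOS+ nuclei in 4 of 4 conditions, by 0.97 to 3.55, as were Dnajb1 (0.61 to 2.29), Hspa8 (0.16 to 4.13) and Hsph1 (0.08 to 3.02). Hspa5 was higher by 5.71 and 5.09 in the conditions with TSO at 1 uM, where it was detected in 9 of 10 and 8 of 8 FOS+ nuclei against 2 of 10 and 7 of 10 FOS- nuclei. With TSO at 10 uM its differences were -0.56 and 0.16, so that the pooled value for Hspa5 rests on the conditions with 1 uM. Hsp90ab1 ranged from -2.26 to 1.91 and Hspe1 from -1.94 to 2.32, each above 0 in 2 of 4 conditions. Arc was higher in 4 of 4, by 3.35 to 9.26. Within a condition 8 to 11 nuclei stood on each side. Over all genes, 11.7 to 24.8% were higher by more than 1 within a condition, and the median difference ran from -0.41 to 0.20. How many of all genes were above 0 in 4 of 4 conditions was not counted. The conditions are parts of the nuclei pooled above, so they are no independent check. As a log2 ratio of mean TPM, which lets the highest nuclei weigh more, the pooled differences were 4.19 for Dnajb1, 1.70 for Hspa5, 1.17 for Hsp90aa1, 1.09 for Hspe1, 0.73 for Hspa8, 0.45 for Hsph1 and -0.02 for Hsp90ab1. Hspe1 thus passed 1 and Hspa8 and Hsph1 did not, beside 12% of all genes higher and 21.4% lower.

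**Figure D3:**
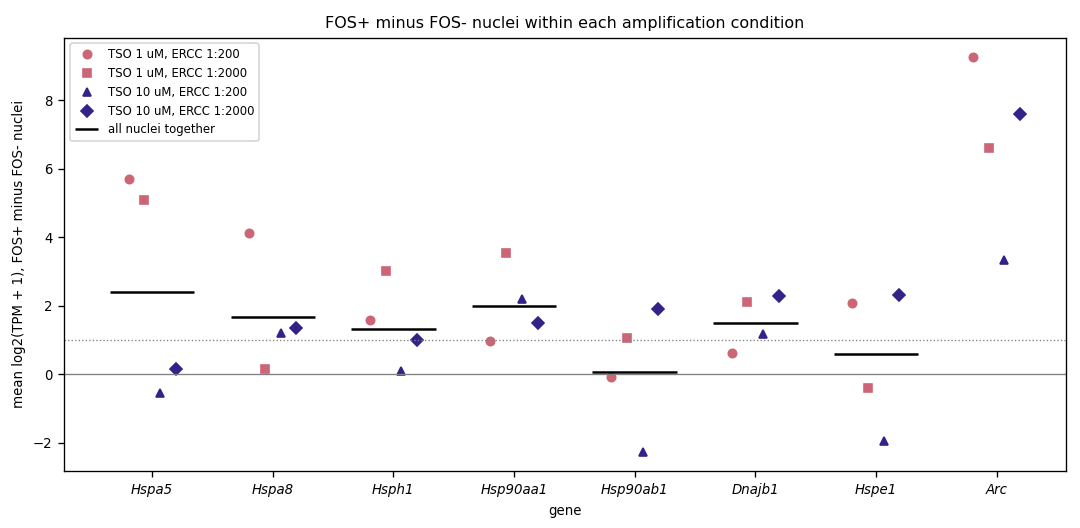
Difference of mean log2(TPM + 1), FOS+ minus FOS- nuclei (y axis), for 7 members and Arc (x axis) in each of 4 amplification conditions (symbols) and for 7 members in all nuclei together (black lines); the dotted line is a difference of 1. Hspa5 is at 5.71 and 5.09 with TSO at 1 uM and at -0.56 and 0.16 with 10 uM, and Hsp90aa1 is above 0 in all 4 conditions.

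Setting aside nuclei that could blur the sort left the same count. Without the 6 FOS+ nuclei whose astrocyte, oligodendrocyte, microglia and endothelial markers summed to over 500 TPM (no FOS- nucleus was so high), 5 members were still higher by more than 1, with Hsp90aa1 at 2.37 and Hspa5 at 2.11, beside 9.08% of 10601 genes higher and 10.0% lower. Of the interneuron markers, Gad1, the GABA-synthesizing enzyme that mature granule cells also express, was higher in FOS+ nuclei by 1.42. Gad2 differed by 0.60 (14 of 40 against 7 of 41 nuclei). Sst (-0.28, 4 of 40 against 5 of 41) and Slc32a1 (-0.26, 0 of 40 against 2 of 41) were below 0 but did not pass the filter. Mag of the oligodendrocyte markers was higher by 1.12, with all 4 compared above 0. Of the granule cell markers, C1ql2 was lower by 1.52. Calb1 (-0.59) and Rbfox3 (-0.28) were also below 0, and Prox1 (0.51) and Dsp (0.61) were above 0. The 5 interneuron markers summed to between 0 and 1313 TPM in FOS- and between 0 and 1360 TPM in FOS+ nuclei, with Pvalb at 0 in both. The oligodendrocyte markers summed to between 0 and 351 TPM in FOS- and between 0 and 945 TPM in FOS+ nuclei. The part of these markers in the members' values was not tested.

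The other chaperone lists held few genes past 1 between FOS+ and FOS- nuclei, beside 8.28% of all genes higher and 10.8% lower. Of 19 cytosolic co-chaperones compared, 1 was higher and 2 were lower by more than 1: Dnajb5, another HSP40, was higher by 2.77, detected in 30 of 40 FOS+ and 18 of 41 FOS- nuclei, whereas Chordc1, an HSP90 partner, was lower by 1.47 and Dnajc6, the auxilin that works with HSC70 on clathrin coats, by 1.32. Of 15 genes of the ER and unfolded protein response, Atf4, a stress transcription factor, was higher (1.73, 16 of 40 against 6 of 41 nuclei), and the disulfide isomerase Pdia3 was lower by 1.16. Of 11 CCT chaperonin and prefoldin subunits, Cct8 (1.38) and Cct4 (1.15) were higher and Pfdn5 lower by 1.12. None of 5 mitochondrial chaperones, 7 other HSP70 and HSP110 genes, 3 HSF genes and regulators or the 1 other small heat shock gene compared was past 1 in either direction. Of 6 oxidative and metal stress genes 3 were higher, the metallothioneins Mt1 (3.29) and Mt2 (2.54) and the sulfiredoxin Srxn1 (1.59). Atf4, Mt2 (14 of 40 against 4 of 41 nuclei) and Srxn1 (15 against 7) passed the filter through the FOS+ nuclei, which favours a higher value there. Dnajc6 (7 of 40 against 19 of 41) and Pfdn5 (6 against 11) passed it through the FOS- nuclei, which favours a lower value in FOS+ nuclei.

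PTZ treatment asks what a seizure adds in whole cells, and no member was past 1 in either direction, beside 4.90% of 10229 genes higher and 11.3% lower. The differences, PTZ minus saline, ran from -0.59 for Dnajb1 and -0.58 for Hspe1 to -0.02 for Hspa8, all below 0, around a median of all genes of -0.14. Each member's difference was smaller than the SD between cells of a group. As log2 ratios of pooled CPM, 7.37% of genes were higher and 8.08% lower. The sign was not stable: pooled CPM was higher after PTZ for 4 of 8 members, among them Hspa8 at 1918 (Poisson 95% interval 1904 to 1931) against 1103 (1093 to 1113). With every cell of the tables, 6 members turned from below to above 0, the highest being Hsp90aa1 at 0.98. Saline whole cells themselves had high immediate early gene levels, with Fos at a median of 497 TPM and a highest value of 12419, against a median of 44 TPM and a highest value of 12461 after PTZ. By pooled CPM Fos was at 2702 after saline and 3021 after PTZ, and it was detected in 78.9% and 86.7% of the cells. Junb (-2.24), Egr1 (-2.11) and Npas4 (-1.82) were lower after PTZ.

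Other chaperone genes did pass 1 between treatments, beside 4.90% of all genes higher and 11.3% lower. In the ER list, Dnajb11 (2.30), a cofactor of BiP, Hyou1 (1.34), the HSP110 of the ER, and Sdf2l1 (1.06) were higher after PTZ, and 4 of 20 were lower, led by Ddit3 (-2.25), the transcription factor CHOP. Co-chaperones were higher in 2 of 23 cases, Fkbp5 (1.60), a glucocorticoid-induced HSP90 partner, and Dnaja4 (1.19), and lower in 6, led by Chordc1 (-1.59). Fkbp5 (14 of 30 PTZ and 5 of 38 saline whole cells) and Dnaja4 (12 and 5) passed the filter through the PTZ whole cells. This favours a higher value there. Of 9 mitochondrial chaperones 4 were lower, with Dnaja3 at -1.75 and Hspa9, the mitochondrial HSP70, at -1.41. Hsf1 itself was lower by 1.36, detected in 19 of 30 PTZ and 31 of 38 saline whole cells. Hspa12a, a distant HSP70 relative, was lower by 2.16 and Mt1 was higher by 2.30. Each treatment was 1 pool of mice, and the titles of the cells carry a tag that differs between the treatments and is not explained. Pool, whatever the tag stands for and treatment therefore cannot be told apart.

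**Figure D4:**
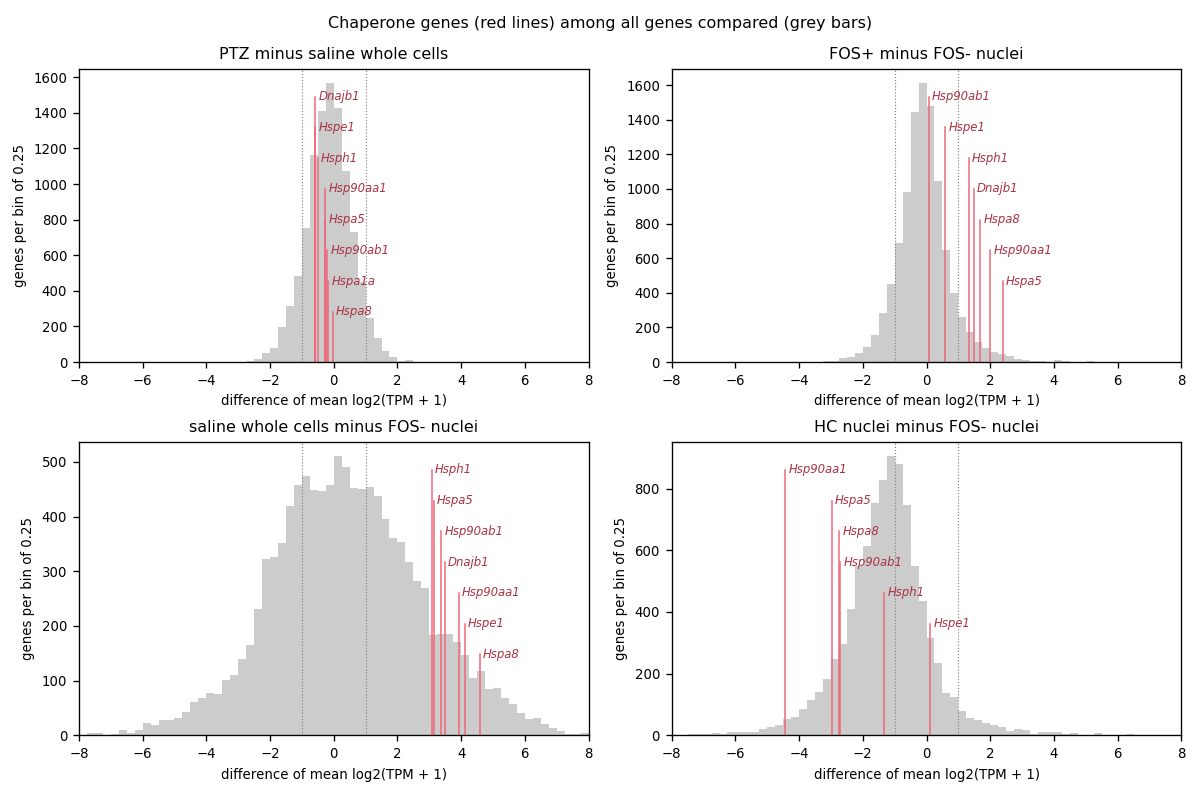
Histograms of the difference of mean log2(TPM + 1) for all genes compared (grey, genes per bin of 0.25 on the y axis) in the 4 comparisons, with the members that passed the detection filter as red lines and dotted lines at -1 and 1. Hspa5 lies at 2.39 in FOS+ minus FOS- nuclei, the members lie between -0.59 and -0.02 after PTZ, and between 3.08 and 4.58 in saline whole cells minus FOS- nuclei.

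Whole cells hold cytoplasmic RNA and went through warm enzymatic digestion, and nuclei did neither, so this comparison sets both beside each other without separating them. All 7 members compared were higher in saline whole cells than in FOS- nuclei, by 4.58 for Hspa8, 4.12 for Hspe1, 3.93 for Hsp90aa1, 3.48 for Dnajb1, 3.38 for Hsp90ab1, 3.13 for Hspa5 and 3.08 for Hsph1. Of 11285 genes compared, 39.2% were higher by more than 1 and 27.7% lower, with a median of 0.34. As log2 ratios of pooled CPM, 25.1% were higher and 37.7% lower, and 6 of the 7 members passed 1, Hsph1 being at 0.80. The differences of Hspa8, Hspe1 and Hsp90aa1 exceeded the SD of cells in either group. Hspa1a, which did not pass the filter, was higher by 1.13. Dnajb1, detected in 57.9% of saline whole cells and 14.6% of FOS- nuclei, passed the filter through the whole cells.

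Other chaperones were also higher in saline whole cells, beside 39.2% of all genes higher and 27.7% lower. CCT chaperonin and prefoldin subunits were higher in saline whole cells in 12 of 14 cases, with a median of 4.73 and Cct5 at 6.53. So were 20 of 23 co-chaperones, led by the HSP90 kinase adaptor Cdc37 (5.29), and 16 of 19 ER genes. Of 9 mitochondrial chaperones 8 were higher, led by Hspd1 (5.35), the HSP60 partner of HSPE1. Cdc37 (34 of 38 saline whole cells, 6 of 41 FOS- nuclei) and Hspd1 (34 and 7) passed the filter through the whole cells. This favours a higher value there, and these counts include other such genes. Among those lower in whole cells were Fkbp5 (-2.45), Hspa12b (-2.21), Hyou1 (-1.25), Dnajb11 (-1.07) and Hspb11 (-4.06). Hspb11 despite its name is a subunit of intraflagellar transport and was detected in 41 of 41 FOS- nuclei. Fkbp5 (5 of 38 saline whole cells, 27 of 41 FOS- nuclei) and Hspa12b (4 and 22) passed the filter through the nuclei. This favours a lower value in whole cells. All 7 immediate early genes compared were higher in saline whole cells, with Junb at 6.82 and Fos at 6.64. Junb was detected in 31 of 38 saline whole cells and 5 of 41 FOS- nuclei, and Fos in 30 and 3. Junb and Fos passed the filter through the whole cells, which favours a higher value there.

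HC nuclei had lower levels of 5 of the 6 members compared than FOS- nuclei, by 4.43 for Hsp90aa1, 2.97 for Hspa5, 2.74 for Hspa8, 2.71 for Hsp90ab1 and 1.32 for Hsph1, while Hspe1 differed by 0.12. This stands against a background of 58.5% of 9228 genes lower and 4.41% higher, a median of -1.21, and about 3237 against 6281 genes per nucleus. As log2 ratios of pooled CPM, 46.4% were lower and 17.1% higher. Hsp90aa1 was near the bottom of all genes, at the 1.97th percentile, and Hsph1, at the 46.3rd, was near the middle. The value for Hspa8 turned on 1 nucleus: the ratio of mean TPM was 1.04, HC over FOS-, with the nucleus at 4677 TPM included. Ptges3, the HSP90 co-chaperone p23, was the 1 co-chaperone higher in HC nuclei (1.49), and Calr (-4.72), an ER lectin chaperone, and Tcp1 (-4.25), a CCT subunit, were far lower.

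Across groups, whose tables were made separately, the mean log2 levels of 6 of the 8 members detected in whole cells had the order saline whole cells, PTZ whole cells, FOS+ nuclei, FOS- nuclei, HC nuclei. Hspe1 (HC above FOS- nuclei) and Hspa1a (FOS- above FOS+ nuclei) departed from it. How many of all genes follow this order was not counted, so it is not shown to be particular to the members. Over all genes compared, the median difference was -0.14 for PTZ minus saline whole cells and -0.11 for FOS+ minus FOS- nuclei. For HC minus FOS- nuclei it was -1.21, with 58.5% of genes lower by more than 1. The step from saline to PTZ whole cells was at most 0.59, and by median TPM it was turned for Hspa8, Hsp90ab1 and Hspa5. By mean TPM Hspa8 was higher in HC nuclei (274) than in FOS- nuclei (263). Neighbours in this order differed by more than the pooled SD of cells in 3 cases, PTZ whole cells over FOS+ nuclei for Hspa8 (2.87, SD 2.54) and Hsp90ab1 (3.10, SD 2.68), and FOS- over HC nuclei for Hsp90aa1 (4.43, SD 3.65).

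Several members share sequence with pseudogenes, and those detected beside Hspa8 were different ones in whole cells and in nuclei. Of the stretches of 31 bases in Hspa8 transcripts, 44.8% were also in another gene. Gm15459, a processed pseudogene holding 38.6% of them, was detected in 37 of 38 saline whole cells (median 761 TPM) and 25 of 30 PTZ whole cells (median 305 TPM), but in 0 of 41 FOS-, 1 of 40 FOS+ and 0 of 23 HC nuclei. Gm26825, a lincRNA holding 38.2% of them, followed it, at medians of 620 and 164 TPM in saline and PTZ whole cells and in 3 FOS-, 2 FOS+ and 0 HC nuclei. Gm8355, holding 29.6%, was the reverse, in 3 saline and 3 PTZ whole cells but in 27 of 41 FOS- nuclei (median 51.9 TPM) and 33 of 40 FOS+ nuclei (median 249 TPM).

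Hspa8 and these 3 genes together had medians of 2549 TPM in saline whole cells, 1998 in PTZ whole cells, 174 in FOS- nuclei and 641 in FOS+ nuclei, and Hspa8 itself held 49, 73, 55.6 and 51.8% of the sum in those groups. With every gene that shares sequence added, the difference for Hspa8 was 2.12 between FOS+ and FOS- nuclei and -0.63 between PTZ and saline whole cells. Which of these genes the reads came from cannot be told from these tables, and read length differed between whole cells and NE nuclei. For Hsp90aa1, the pseudogene Gm12346 shared 46.7% and was detected in 11 of 41 FOS- and 18 of 40 FOS+ nuclei, at no more than 483 TPM. Hspa1a shared 63.8% with Hspa1b, so the split of reads between that pair is uncertain, and Gm10501, antisense and sharing 12.1%, was found in 10 saline and 6 PTZ whole cells. Hsph1 shared none, Hspa5 0.0467% and Dnajb1 0.444%.

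**Figure D5:**
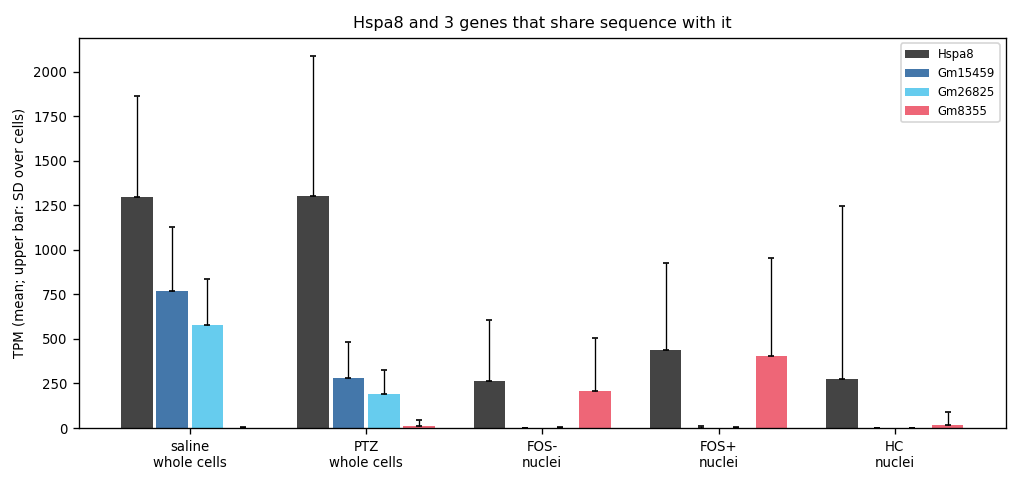
Mean TPM (bars; upper line, SD over cells) of Hspa8 and of Gm15459, Gm26825 and Gm8355, which share sequence with it, in the 5 groups on the x axis. Gm15459 and Gm26825 stand beside Hspa8 in whole cells, where Gm8355 is near 0, and Gm8355 stands beside it in FOS- and FOS+ nuclei.

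Among themselves the members were only loosely tied from cell to cell. Over the 21 pairs of 7 members, Spearman's rho was above 0 for 20 pairs in the 40 FOS+ nuclei (median 0.26, highest 0.52 for Hspa5 with Hsp90ab1), 15 in the 41 FOS- nuclei (median 0.06), 14 in the 38 saline whole cells (median 0.11), 14 in the 30 PTZ whole cells (median 0.23) and 9 in the 23 HC nuclei (median -0.08). Cells of a group share their preparation, and members also follow depth: in FOS+ nuclei rho with total count was 0.22 to 0.54 for the 7 members, beside 0.27 to 0.48 with Arc. In saline whole cells Hspa8 (0.46), Hsp90ab1 (0.45), Hsp90aa1 (0.45) and Dnajb1 (0.37) went with Fos, and Hspa5 (-0.24) did not. With the number of detected genes, rho in these cells was 0.41, 0.11, 0.29, 0.32 and -0.35 in the same order. In PTZ whole cells rho with Fos was 0.32, 0.06, 0.46, 0.23 and -0.09 in that order. These are descriptions over cells, not over animals.

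The 5 genes whose pattern over 68 whole cells was most like the sum of Hspa1a and Hspa1b, among 10221 compared by Spearman's rho, were Nsun4 (0.58), Cdc34 (0.51), Zfyve28 (0.49), Cnst (0.48) and Vps39 (0.47). Only 16 of the 68 cells had Hspa1a, and Nsun4 was detected in 16 cells, 10 of them shared.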

How the data were processed

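Per the methods and the submitters' processing notes, the authors trimmed the reads with SolexaQA++, aligned them to mm10 with Bowtie 1.0.0 and quantified Ensembl genes with RSEM. The deposited tables held expected counts and TPM, 1 pair each for whole cells, NE nuclei and HC nuclei, with gene symbols in rows and cells in columns. TPM was scaled by the authors within each cell, and levels set across the tables compare separately made libraries.

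Cells were kept with more than 50000 total counts and more detected genes (TPM above 1) than 2 SD below the mean of their table, except that all 23 HC nuclei were kept. Expected counts were rounded before summing. A level is log2(TPM + 1), a pseudocount of 1. A gene entered a comparison when TPM was above 1 in at least 20% of the cells compared, and was named as higher or lower past a difference of 1. A gene detected mostly in 1 group can enter through that group alone, which favours a higher value there. Cells are not replicates, so no test was run: SD over cells, exact (Clopper-Pearson) intervals for shares and Poisson intervals for summed counts are given, and the last 2 cover counting error only. The labels name no animals. The members, the 15 other lists and the comparisons were chosen with earlier results of these data known. Genes were named by rule: every member, up to 3 with the largest differences per list and direction, and the 5 most like Hspa1a and Hspa1b, with Fos, Arc, Prox1 and Rbfox3 for reference; of those the rule allows, the text names some. Other genes were named after their values were seen. Sequence sharing was counted as 31-base stretches of GENCODE M21 transcripts. The comparison was tested on simulated data. Python 3.11.15, pandas 2.3.3, numpy 2.4.6 and scipy 1.17.1 were used.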

Additional observations from a re-analysis of the deposited data

How the results depend on the processing

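Between FOS+ and FOS- nuclei, 5 members were higher by more than 1. With a pseudocount of 10 there were 3, beside 3.29% of all genes, and in the condition with TSO at 10 uM and ERCC at 1:200 alone there were 3 higher and 2 lower, with Hspa5 at -0.56, beside 17.8% of all genes higher and 17.3% lower. In the other alternatives the count was 4 or 5, beside 3.99 to 24.8% of all genes, but not always of the same members. With TSO at 10 uM and ERCC at 1:2000, Hsp90ab1 (1.91) and Hspe1 (2.32) passed 1 and Hspa5 (0.16) and Hsph1 (0.99) did not; as a ratio of pooled CPM, Hspe1 (1.19) did and Hspa8 (0.87) and Hsph1 (0.97) did not. With PTZ, where no member had passed 1, 1 member, Hspa1a, was lower by more than 1 as a ratio of mean TPM (-2.35, beside 10.7% of all genes) and as a ratio of pooled CPM (-2.60, beside 8.08%); these ratios weigh the highest saline cell fully. Between HC and FOS- nuclei, 5 members were lower; 3 were as a ratio of pooled CPM. There Hspa8 turned from -2.74 to 1.00, and to 0.059 as a ratio of mean TPM, with 1 nucleus at 4677 TPM. The count of members detected in at least 50% of HC nuclei went from 1 to 0 when 5 counts were asked for. Leaving out 1 cell at a time left every count as it was, 0 with PTZ, 5 higher in FOS+ nuclei, 7 higher in saline whole cells and 5 lower in HC nuclei. The share of all genes past 1 moved more than the members' counts: with PTZ it was 0.420% higher and 1.90% lower with a pseudocount of 10, and 12% and 21.8% with 0.1. With every cell of the tables, PTZ minus saline turned above 0 for Hsp90aa1 (0.98), Dnajb1 (0.52), Hsph1 (0.50), Hsp90ab1 (0.47), Hspa8 (0.36) and Hspa5 (0.13). The share with Dnajb1 in FOS+ nuclei went from 40 to 22.5%, and that with Hspe1 in HC nuclei from 43.5 to 26.1%, when 5 counts were asked for. Of 518 recomputed differences of members, 34 changed sign, 17 of them with PTZ and 13 between FOS+ and FOS- nuclei; 3 of the 34 were of members that had passed 1, Hspa5 and Hspa8 above. A ratio against a group at 0 gave no value. Sums with genes of shared sequence, and the sets without cells high in markers of other types or without nuclei under 3000 genes, were chosen after seeing the data. No paired analysis was possible because the replicate numbers only name cells. At the totals kept, 3 counts are up to 0.0047% of a library. A gene at 0 in a cell was not detected there, which does not show that it was absent.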
